A study of Mus musculus with 4 samples.

Results

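The cells described here are colonic macrophages that carried AA467197 and high MHC class II transcripts but had no detected Ly6c2. A count of 0 does not show that a cell lacked the transcript. They were chosen by unique molecular identifier (UMI) counts, where 1 UMI stands for 1 captured transcript molecule. A member had 0 UMIs of Ly6c2, which encodes the monocyte surface protein Ly6C, and at least 2 UMIs of AA467197. It also had a level M of at least 200, where M is the sum of H2-Aa, H2-Ab1, H2-Eb1 and Cd74 UMIs per 10000 UMIs of the cell. Of the 5420 cells in the data, 174 met this rule, with 4 in chow replicate 9, 9 in chow replicate 11, 76 in HFD replicate 1 and 85 in HFD replicate 3. The remaining cells were divided into other Ly6c2-negative M-high cells, which had 0 or 1 AA467197 UMI, Ly6c2-positive M-high cells and M-low cells with M under 200.

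Male C57/Bl6N mice that were 6 to 7 weeks old received chow or a coconut-based high-fat diet (HFD) for 1 week, with 2 mice per diet. Live lamina propria cells that were CD45+, Lin-, CD11b+ and CD24- and that expressed Ly6C or CD64 were sorted from each mouse into a single 10x Genomics 3′ library. The labels name no transgene or drug in any group, and each mouse is 1 replicate.

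AA467197 is the mouse gene of NMES1, a small mitochondrial protein related to Ndufa4, a subunit of cytochrome c oxidase. Its transcript also hosts the precursor of the microRNA miR-147, and both are known to be induced in macrophages by inflammatory stimuli. In the colon, macrophages are renewed from Ly6C-high blood monocytes, which lose Ly6C while they gain MHC class II and, later, scavenger receptors and complement C1q. Cells without detected Ly6c2 and with high MHC class II therefore span monocyte-derived cells of different maturity.

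The locus lies on chromosome 2 of GRCm38. The stretch of the AA467197 promoter that overlaps no annotated exon is shown because the gene defines the cells. It covers chr2:122637755-122637849 on the plus strand, and the promoter of Cxcl9, the most abundant of the other label markers, is shown beside it and covers chr5:92328080-92328329 on the minus strand. Sequences are from RefSeq (GRCm38.p6), and of the 5 label markers AA467197, Ass1 and Cxcl9 matched an entry. Capitals mark matches to TGANTCA (AP-1) or GGGNNTTCC (NF-kB), which were searched on both strands of the 250 bases before each start, together with TTCNNNGAA (GAS) and GAAANNGAAA (ISRE core). Of all 32851 promoter windows of that length, 6.75% held the AP-1, 4.98% the NF-kB, 7.02% the GAS and 2.98% the ISRE letters. A match is a description of the letters and not evidence of binding.
AA467197: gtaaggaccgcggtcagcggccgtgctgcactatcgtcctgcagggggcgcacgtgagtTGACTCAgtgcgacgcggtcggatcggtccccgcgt
Cxcl9: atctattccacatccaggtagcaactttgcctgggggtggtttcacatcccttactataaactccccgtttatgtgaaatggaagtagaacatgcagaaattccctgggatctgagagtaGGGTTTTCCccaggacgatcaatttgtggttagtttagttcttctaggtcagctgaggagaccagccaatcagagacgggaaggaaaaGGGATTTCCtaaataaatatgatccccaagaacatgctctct

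The AP-1 letters began 73 bases before the RefSeq start of AA467197, and the NF-kB letters began 130 and 42 bases before the start of Cxcl9. GENCODE M21, used for gene positions here, lists a longer AA467197 transcript that begins upstream, at base 122636986, so the stretch shown lies inside the gene by that annotation. The Ass1 window held 0 matches to these letters. The mature miRNA listed for the AA467197 locus lies at chr2:122640814-122640837 and is shown with its seed, bases 2 to 8, in capitals. The libraries capture polyadenylated transcripts, so its level was not measured.
mmu-miR-147-5p: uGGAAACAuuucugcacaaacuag

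Members were rare on chow and common on HFD. They made up 0.541% and 0.529% of the Ly6c2-negative M-high cells of chow replicates 9 and 11, with exact 95% binomial (Clopper-Pearson) intervals of 0.148% to 1.38% and 0.242% to 1.00%. They made up 17.4% (14.0% to 21.3%) in HFD replicate 1 and 15.3% (12.4% to 18.6%) in HFD replicate 3. The shares of the diets did not overlap, and neither did their intervals. These intervals cover counting error only, and with 2 mice per diet a two-sided exact permutation test cannot give a p below 0.33. Because the rule was written with the diets in view, the shares are a description. As a share of all sorted cells, members were 0.443%, 0.450%, 7.87% and 5.49% in the same order of mice. After every cell was thinned to 1500 UMIs, the share among Ly6c2-negative M-high cells was 0.105% and 0.179% on chow and 11.4% and 9.53% on HFD.

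AA467197 UMIs varied widely among members. In HFD replicate 1 the median was 5 UMIs and the highest cell had 75, and in HFD replicate 3 the median was 3 and the highest cell had 88. At least 6 UMIs were found in 37 of 76 and 29 of 85 HFD members. No chow member reached 6 UMIs, and the highest chow members had 3 and 5. Just inside the threshold, 23 and 18 HFD members had exactly 2 UMIs, and just outside it 34 and 77 Ly6c2-negative M-high cells had 1 UMI. Of the HFD members, 0 had an M of 200 to 250, and 2 cells with an M of 150 to 200 met the other conditions. Of the 13 chow members, 0 of 4 and 0 of 9 had a Cxcl9 UMI, and likewise 0 of 4 and 0 of 9 a Ccl24 UMI, which with so few cells allows shares of up to 60.2% and 33.6%. Ass1 and Spon1 each had a UMI in 0 of 4 and 1 of 9 chow members. AA467197 was not confined to members. At least 2 UMIs were also found in 21.6% and 13.3% of the Ly6c2-positive M-high cells and in 4.18% and 3.70% of the M-low cells of HFD replicates 1 and 3.

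**Figure D1:**
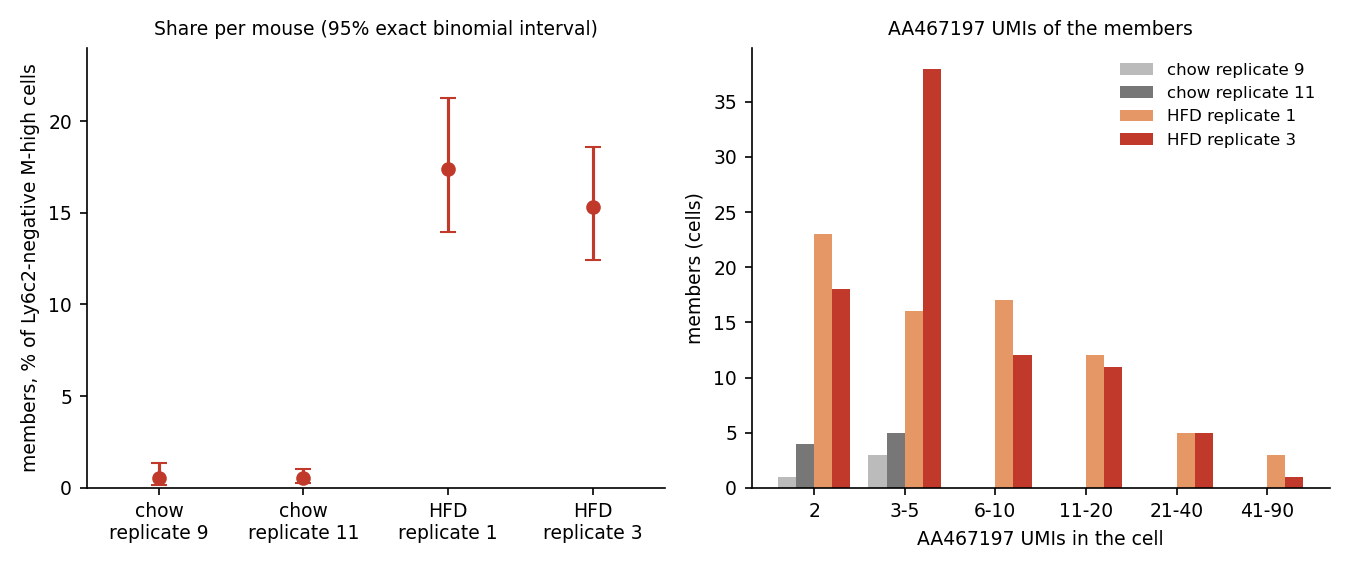
Left, members as a percentage of the Ly6c2-negative M-high cells of each mouse, with exact 95% binomial intervals. Right, number of members (cells) by their AA467197 UMIs in each mouse. Both HFD mice sit above 15% and both chow mice below 1%, and cells with 6 or more AA467197 UMIs were found only in the HFD mice.

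Libraries held 3824228 to 7947893 UMIs from 904 to 2002 cells. Members were deeper than the cells they were compared with. In HFD replicates 1 and 3 the median member had 4946.5 and 4322 UMIs, against 3229 and 3182.5 in other Ly6c2-negative M-high cells and 4501.5 and 3672 in Ly6c2-positive M-high cells. Scrublet marked 0 of 76 and 0 of 85 HFD members as doublets. Of all cell barcodes, 23 were present in 2 libraries, and leaving them out left 75 and 84 HFD members.

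The label was checked against marker genes. In both HFD mice the members had UMIs of all 10 macrophage markers, among them Csf1r, the receptor for macrophage colony-stimulating factor (517 and 456 CPM, UMIs per 1000000 UMIs of the summed cells), and Cd68 (446 and 510 CPM). The summed macrophage level, 9783 and 8647 CPM, was below that of other Ly6c2-negative M-high cells, 16480 and 15040 CPM, and close to that of Ly6c2-positive M-high cells, 9071 and 8544 CPM. Adgre1, which encodes the macrophage protein F4/80, was at 71.2 and 77.9 CPM in members and at 320.5 and 233 CPM in other Ly6c2-negative M-high cells. It fell with a log2 fold change of -1.92 ± 0.21 (SE, edgeR adjusted p = 5.99e-07). Fcgr1, the gene of the sort marker CD64, was at 139.8 and 93.96 CPM in members and at 196.5 and 198.5 CPM in the comparison cells (log2 fold change -0.80 ± 0.19, edgeR adjusted p = 0.00689). The monocyte list summed to 3615 and 3060 CPM in members, close to the 3145 and 3637 CPM of other Ly6c2-negative M-high cells and below the 8688 and 9796 CPM of Ly6c2-positive M-high cells. Part of the last difference was set by the rule, since the list includes Ly6c2, at 587 and 932 CPM in Ly6c2-positive M-high cells.

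Of the 10 dendritic cell markers, 9 and 8 had a UMI in the members, and the list summed to 794 and 832 CPM against 474 and 417 CPM in other Ly6c2-negative M-high cells. Most of the sum came from Ccr7 (535 and 319.5 CPM) and Cd209a (108 and 362 CPM). In the comparison cells Ccr7 was at 115 and 83.2 CPM and Cd209a at 153 and 120 CPM, so Ccr7 was higher in members in both mice and Cd209a in HFD replicate 3 only. Flt3 was at 2.64 and 5.37 CPM in members and at 16.2 and 10.7 CPM in comparison cells, Zbtb46 at 2.64 and 0 CPM against 5.39 and 3.57 CPM, and Itgae had 0 UMIs in both. Clec9a was at 18.5 and 8.05 CPM against 1.54 and 14.3 CPM. Flt3, Zbtb46 and Itgae were near 0 in both classes, so they do not tell the classes apart. Lists for other cells stayed low. Neutrophil markers summed to 21.1 and 29.5 CPM, epithelial markers to 18.5 and 29.5 CPM, stromal and endothelial markers to 21.1 and 29.5 CPM, T and NK cell markers to 192.5 and 123.5 CPM (129 and 122 CPM in other Ly6c2-negative M-high cells), B and plasma cell markers to 132 and 64.4 CPM and cycling markers to 55.4 and 56.4 CPM, all within 1.5 times of, or below, the comparison cells of the same mouse. The part of these lists in the results was not tested. Of the eosinophil and mast cell lists 1 and 0 genes were in the table, so both lists were hardly analysed here.

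Of the other 4 genes given as markers of these cells, Cxcl9 and Ass1 stood above all other classes, Ccl24 was higher within each mouse, and Spon1 stood well above both other classes in HFD replicate 1 and close to Ly6c2-positive M-high cells in HFD replicate 3. Since members were proposed with these genes in view, their levels are a description. Cxcl9, an interferon-gamma-induced chemokine that attracts T cells through CXCR3, was at 1946 and 1482 CPM in members of HFD replicates 1 and 3, at 564 and 657 CPM in other Ly6c2-negative M-high cells and at 946 and 894 CPM in Ly6c2-positive M-high cells. Ass1, the argininosuccinate synthase that rebuilds arginine from citrulline, was at 585 and 792 CPM in members, 166 and 193 CPM in other Ly6c2-negative M-high cells and 388 and 391.5 CPM in Ly6c2-positive M-high cells. The member sums of both genes lay above the sums of every other whole class on HFD. AA467197-positive cells within the Ly6c2-positive class, described below, had more Cxcl9 in both mice and more Ass1 in HFD replicate 1. Ccl24, an eosinophil-attracting chemokine, was at 295 and 789 CPM in members, against 55.5 and 319 CPM in other Ly6c2-negative M-high cells. Members were higher within each mouse, yet the member sum of HFD replicate 1 lay below the comparison sum of HFD replicate 3. Spon1, a secreted matrix protein, was at 76.5 and 40.3 CPM in members and 33.1 and 26.7 CPM in comparison cells, with 43.4 and 39.9 CPM in Ly6c2-positive M-high cells.

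At the level of single cells, Cxcl9 was detected in 57 of 76 and 63 of 85 HFD members, Ass1 in 55 and 64, Ccl24 in 16 and 28 and Spon1 in 18 and 11. Cxcl9 and Ass1 were detected in the same cell in 45 of 76 and 49 of 85 members, and neither was detected in 9 and 7. Ccl24 marked a smaller set, and 14 of its 16 cells and 24 of its 28 cells also had a Cxcl9 UMI. Among other Ly6c2-negative M-high cells of the HFD mice, Cxcl9 was detected in 35.5% and 47.2%, and in those of the chow mice in 3.13% and 2.89%. Depth differed between these cells. Thinned to 1500 UMIs, which left 72 and 79 members and 299 and 386 comparison cells, Cxcl9 was detected in 61.5% and 55.3% of members against 23.9% and 36.9%, and Ass1 in 48.7% and 51.7% against 15.3% and 20.9%.

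**Figure D2:**
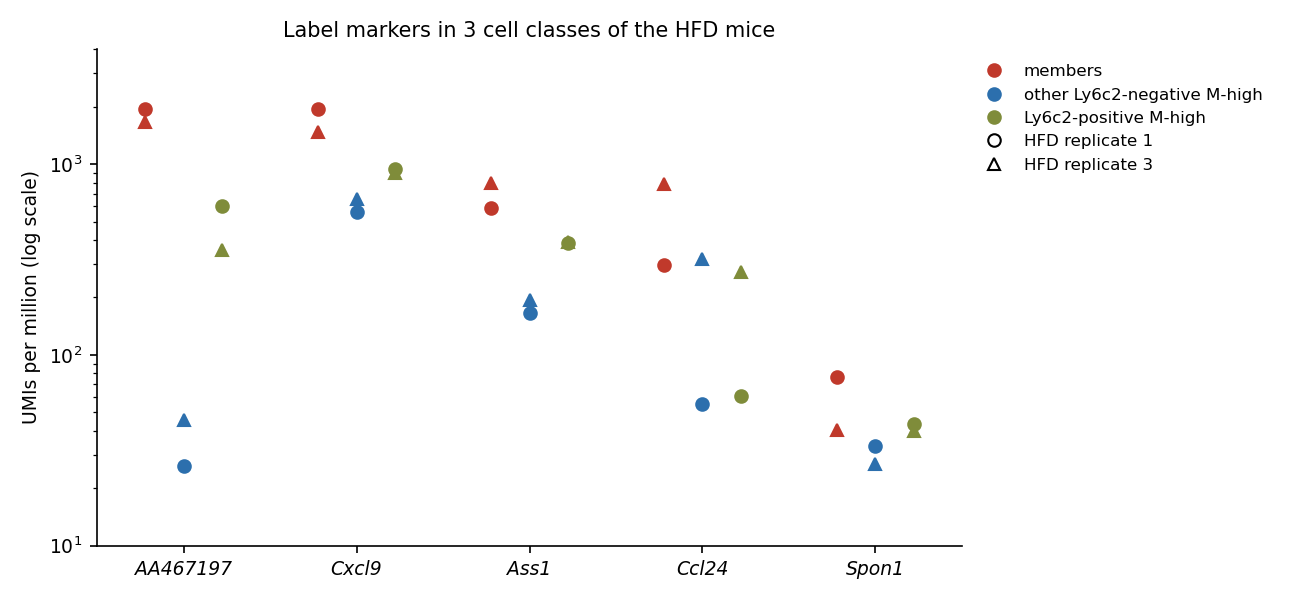
CPM (log scale) of the 5 label markers in the summed cells of 3 classes, with circles for HFD replicate 1 and triangles for HFD replicate 3. AA467197 chose the members, and Cxcl9 and Ass1 were highest in members in both mice, whereas Spon1 in members of HFD replicate 3 was near the level of Ly6c2-positive M-high cells.

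The members of the HFD mice were then compared with the other Ly6c2-negative M-high cells of the same mice, by UMI counts summed per mouse and class and fitted with edgeR. Of 5352 genes tested, 95 were higher and 127 lower in members at an FDR of 1%, which is 1.78% and 2.37% of the genes. The genes of the rule and the label markers are left out of these counts. C1q also differed between the compared cells. At least 50 C1qa, C1qb and C1qc UMIs per 10000 were found in 53.9% and 51.8% of members and in 74.0% and 63.2% of the comparison cells. The comparison was therefore repeated within C1q-low and within C1q-high cells, which share no cells. Among C1q-low cells 35 genes (0.651% of 5375) were higher and 15 (0.279%) lower, and among C1q-high cells 45 genes (0.799% of 5629) were higher and 81 (1.44%) lower. Without a term for the mouse, the comparison of all cells called 118 genes, and in a fit over all 4 mice it called 39 without HFD replicate 1 and 43 without HFD replicate 3.

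Among the 12 largest rises were chemokines, a chemokine receptor and genes of coagulation and lipid transport. Ccl17, a chemokine that attracts CCR4-positive T cells, was at 430 and 642 CPM in members and at 12.3 and 90.9 CPM in comparison cells (log2 fold change 3.39 ± 0.31 SE, edgeR adjusted p = 2.98e-08). Both member sums were above both comparison sums, but few cells carried the transcript: 10 of 76 and 14 of 85 members had a Ccl17 UMI, and 1 cell in each mouse held 111 UMIs, which is 68.1% and 46.4% of the member total. Ccl22, which binds the same receptor, was at 79.1 and 72.5 CPM against 9.25 and 32.7 CPM (log2 fold change 1.82 ± 0.38, edgeR adjusted p = 0.00273). Ccr7, the receptor that guides cells to lymph nodes, was at 535 and 319.5 CPM against 115 and 83.2 CPM, and 25 of 76 and 20 of 85 members had a UMI (log2 fold change 2.08 ± 0.22, edgeR adjusted p = 3.18e-07). Ccr7 and Ccl17 were detected together in 5 and 3 members.

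F10, which encodes coagulation factor X, was at 390 and 274 CPM in members and at 79.4 and 54.1 CPM in comparison cells (log2 fold change 2.28 ± 0.20, edgeR adjusted p = 1.95e-08). Procr, the endothelial protein C receptor, was at 446 and 207 CPM against 119 and 64.8 CPM (log2 fold change 1.79 ± 0.21, edgeR adjusted p = 1.16e-06). Members were above comparison cells in both mice for both genes, and F10 was detected in 41 of 76 and 30 of 85 members. Fabp5, a fatty acid-binding protein, was at 1126 and 577 CPM against 242 and 217 CPM (log2 fold change 1.83 ± 0.21, edgeR adjusted p = 1.03e-06). Ccl5, a chemokine for T cells and monocytes, was at 1703 and 948 CPM against 262 and 623.5 CPM (log2 fold change 1.66 ± 0.36, edgeR adjusted p = 0.00324). The Ccl5 rise did not pass with DESeq2 (adjusted p = 0.454), without a term for the mouse (0.0572, edgeR), among cells of 3000 to 8000 UMIs (0.0347) or without HFD replicate 1 (log2 fold change 0.53, edgeR adjusted p = 0.581), and it was 2.69 without HFD replicate 3. Spp1, which encodes osteopontin, rested mainly on HFD replicate 1, where it was at 638 CPM in members against 47.0 CPM, while it was at 96.7 against 80.2 CPM in HFD replicate 3. The other rises of this group were Gm15056, Cnn3, an actin-binding calponin, Socs2, a suppressor of cytokine signaling, and Ndrg1, with log2 fold changes of 3.26, 1.99, 1.78 and 1.61. Of the Gm15056 UMIs, 44.9% and 37.3% came from 1 member in each mouse. Of the 12 rises, Ccl17, F10 and Ccr7 passed when either mouse was left out, Gm15056, Spp1, Cnn3, Fabp5, Procr and Ccl5 passed only without HFD replicate 3, and Ccl22, Socs2 and Ndrg1 passed in neither fit. With DESeq2, Spp1 and Ccl5 did not pass (adjusted p = 0.265 and 0.454), and without a term for the mouse Ccl5, Ccl22 and Ndrg1 did not. Among cells of 3000 to 8000 UMIs, Ccl22 and Ndrg1 also did not pass (edgeR adjusted p = 0.0156 and 0.0238).

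The 12 largest falls included chemokines, the mannose receptor and a cytokine. Fcrls had 0 UMIs among the 751738 UMIs of the members and 196 among the 2980338 UMIs of the comparison cells, so it was at least 16.5-fold lower, taking 3 UMIs over both mice as the floor. Il10, an anti-inflammatory cytokine, had 3 UMIs in members and 210 in comparison cells, which makes it 17.7-fold lower with a counting interval of 5.96 to 86.3. Ccl7, a ligand of CCR2, was at 21.1 and 37.6 CPM in members and at 344 and 456.5 CPM in comparison cells (log2 fold change -3.82 ± 0.23, edgeR adjusted p = 3.31e-11). Ccl12, another CCR2 ligand, was at 29.0 and 129 CPM against 915 and 846 CPM (log2 fold change -3.51 ± 0.31, edgeR adjusted p = 1.92e-08). Both member sums of each of these genes were below both comparison sums. Pf4 was at 63.3 and 32.2 CPM against 489 and 325 CPM, Mrc1, the mannose receptor, at 18.5 and 2.69 CPM against 105 and 73.1 CPM, and Cx3cr1, the fractalkine receptor of resident macrophages, at 18.5 and 34.9 CPM against 226 and 159 CPM. Their log2 fold changes were -3.14, -3.12 and -2.87. The remaining falls were Ccl8, Ptgs1, H2-M2, Olfml3 and Tmem37, with log2 fold changes of -3.19, -2.95, -2.86, -2.78 and -2.54. Ccl8 rested mainly on HFD replicate 3, where it was at 29.5 CPM in members against 1014 CPM, while it was at 94.9 against 250 CPM in HFD replicate 1. Its log2 fold change was -5.17 without HFD replicate 1 and -1.41 without HFD replicate 3 (edgeR adjusted p = 0.0657), and it did not pass with DESeq2 (adjusted p = 0.282) or without a term for the mouse (0.0128, edgeR). Olfml3 did not pass when either mouse was left out, and the other 10 falls passed under each of these.

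Several of the fallen genes had their highest levels on chow. In the other Ly6c2-negative M-high cells of chow replicates 9 and 11, Pf4 was at 2096 and 1943 CPM, Cx3cr1 at 479 and 532.5 CPM, Mrc1 at 271 and 349 CPM and Fcrls at 332 and 353 CPM. For these 4 genes the order was therefore chow comparison cells, HFD comparison cells and HFD members in all mice. F10 and Procr had the opposite order, with F10 at 2.14 and 2.61 CPM and Procr at 10.4 and 8.83 CPM in the same chow cells. Ccl12 and Ccl8 did not follow the order of Pf4, since the chow comparison cells, at 459 and 663 CPM for Ccl12 and at 86.7 and 149 CPM for Ccl8, lay below those on HFD.

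Most of the largest rises, but none of the largest falls, were called among C1q-low cells. Of the 12 rises, 8 were past the FDR of 1% both among C1q-low and among C1q-high cells, namely Gm15056, F10, Spp1, Ccr7, Cnn3, Fabp5, Procr and Ccl5. Ccl17 was past it among C1q-high cells (log2 fold change 4.25) and not among C1q-low cells (1.40, edgeR adjusted p = 0.0252), as was Ndrg1 (1.67 and 1.73, edgeR adjusted p = 0.00657 and 0.116), and Ccl22 and Socs2 were past it in neither. Of the 12 falls, all were past it among C1q-high cells, including Ccl7 (-4.48), Pf4 (-3.12) and Cx3cr1 (-2.79), and none among C1q-low cells, where 6 could be fitted and 6 were too low to be tested. Among C1q-low cells the log2 fold change was -0.69 for Ccl7, -0.41 for Pf4 and 0.36 for Ccl8, but -1.94 for Cx3cr1 and -2.71 for Ccl12 (edgeR adjusted p = 0.158 and 0.0160). The difference between C1q-low and C1q-high cells was not tested.

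**Figure D3:**
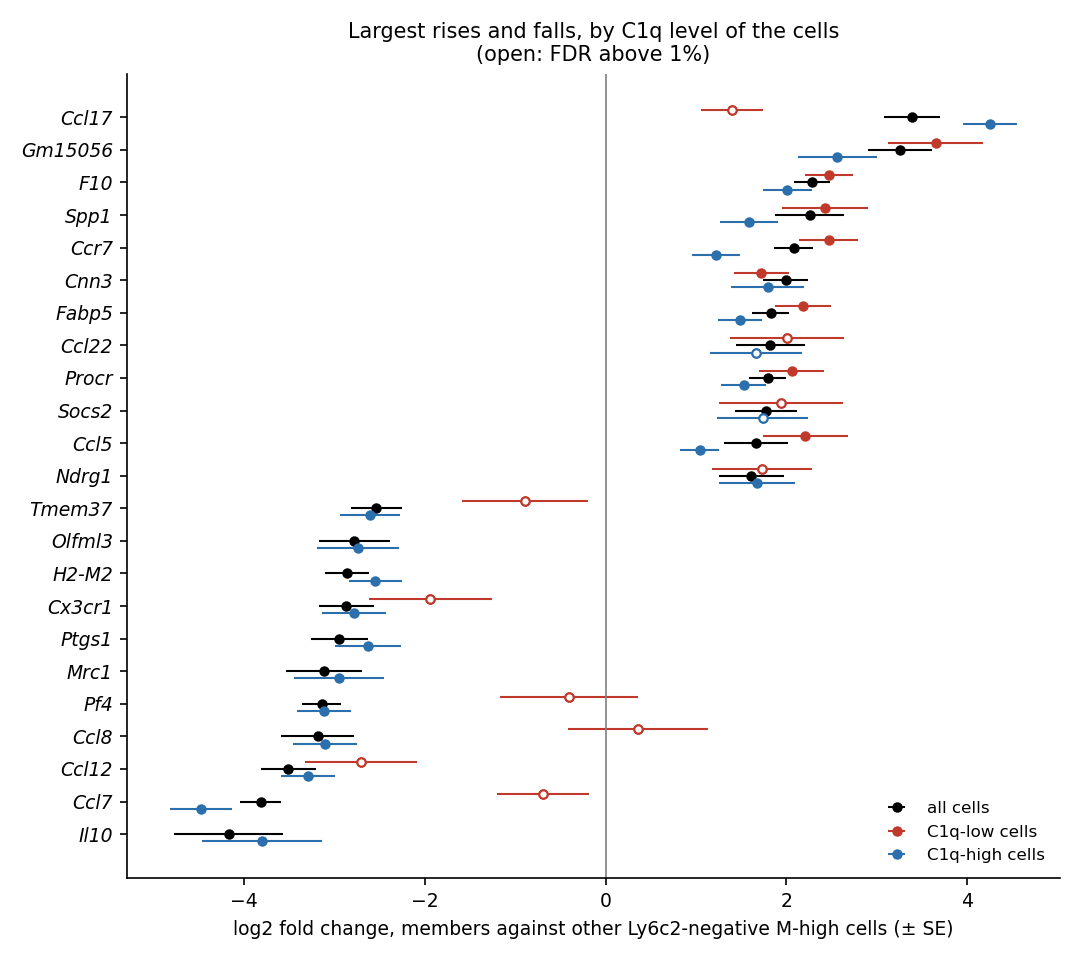
Log2 fold change (± SE) of members against other Ly6c2-negative M-high cells for the 12 largest rises and 11 of the 12 largest falls, with all cells in black, C1q-low cells in red and C1q-high cells in blue. Open circles are above the FDR of 1%. Fcrls, with 0 UMIs in members, is not drawn, and genes too low to be tested among C1q-low cells have no red point. Among C1q-low cells Ccl7, Pf4 and Ccl8 are within 1 of 0, Ccl12 and Cx3cr1 are further below it, and rises such as F10 and Fabp5 lie near their values over all cells.

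In all, 24 genes were called in the same direction among C1q-low and among C1q-high cells, which is 48% of the C1q-low calls and 19% of the C1q-high calls. Those calls were 50 of 5375 genes tested among C1q-low and 126 of 5629 among C1q-high cells. Both sets of cells come from the same 2 mice, so they are not separate replicates. Of the 24 genes, 18 were higher. Beside the rises above, Prdx1, Txn1, Slc7a11 and Sod2 were among them. Prdx1, a peroxiredoxin, was at 3365 and 3232 CPM in members and at 1336 and 1453 CPM in comparison cells (log2 fold change 1.21 ± 0.11, edgeR adjusted p = 3.07e-08). Txn1, thioredoxin, was at 1535 and 1560 CPM against 634 and 840 CPM, and Slc7a11, the cystine transporter, at 936 and 821.5 CPM against 393 and 360 CPM. Sod2, the mitochondrial superoxide dismutase, was at 1279 and 1275 CPM against 548 and 528 CPM. Members were above comparison cells in both mice for each of these. The other higher genes were Il1rn, Cstb, Serpina3g, Tpi1, Alas1 and Cd9. Prdx1, Txn1, Cstb, Tpi1, Alas1 and Cd9 lie outside the rule for named genes and were chosen after their values were seen. The 6 lower genes were Jun, Atf3, Fos, Hspa1a, Clec4a2 and Ptpn18, also named after their values were seen. Of these, Jun, Atf3 and Fos are immediate early transcription factors and Hspa1a is a heat shock protein. Fos was at 1880 and 2191 CPM in members and at 3779 and 3545 CPM in comparison cells (log2 fold change -0.89, edgeR adjusted p = 1.81e-06).

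Gene lists are given next. Their counts stand beside the shares over all genes, which were 1.78% higher and 2.37% lower at an FDR of 1%. Among C1q-low cells those shares were 0.651% and 0.279%, and among C1q-high cells 0.799% and 1.44%. At an unadjusted p under 0.05, in either direction, 1074 of all 5352 genes passed in edgeR, and 738 of 5375 among C1q-low cells. Of the called list genes whose values are given here, Ccl17, Ccr7, Il1rn, Sod2, Il10, Pf4, Mrc1, Cx3cr1, Ccl3, Ccl4, Ccl7, Ccl12, Cd81 and Apoe passed with DESeq2, without a term for the mouse and when either HFD mouse was left out of the fit over 4 mice. Every other one of them lost its call when 1 or the other mouse was left out.

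The chemokine list turned in both directions. Of 13 tested chemokines outside the label, 3 rose (Ccl17, Ccl22, Ccl5) and 8 fell (Ccl7, Ccl12, Ccl8, Pf4, Ccl3, Ccl4, Cxcl1, Cxcl2), with a median log2 fold change of -1.71 against a median near 0 over all genes. Ccl3 and Ccl4, chemokines made by inflammatory macrophages, were at 206 and 244 CPM and at 472 and 913 CPM in members, against 1543 and 1036 CPM and 2932 and 2264 CPM in comparison cells. Cxcl2, a neutrophil chemokine, was at 2518 and 2317 CPM against 4546 and 3650 CPM (log2 fold change -0.79 ± 0.15, edgeR adjusted p = 0.00120). Among C1q-low cells edgeR called 2 chemokines higher and 0 lower, with 4 higher and 4 lower at an unadjusted p under 0.05, and the median was 0.10.

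Of 14 tested glycolysis genes, 9 rose, 0 fell and 5 did not pass, and the median log2 fold change was 0.86. Pkm, pyruvate kinase, was at 1221 and 1219 CPM in members and at 553 and 796 CPM in comparison cells, and Ldha, lactate dehydrogenase A, at 1136 and 1262 CPM against 628 and 761 CPM. Aldoa and Pgk1 rose with log2 fold changes of 1.01 ± 0.14 and 1.00 ± 0.15 (edgeR adjusted p = 1.10e-05 and 5.72e-05). DESeq2 also called 9 of the 14 higher. Without HFD replicate 1 none of Pkm, Ldha, Aldoa and Pgk1 passed (edgeR adjusted p = 0.436, 0.316, 0.0177 and 0.531), and without HFD replicate 3 only Pkm did. The summed list was at 5532 and 5863 CPM in members, 2720 and 3400 CPM in comparison cells and 4288 and 4439 CPM in Ly6c2-positive M-high cells, without overlap between classes. Among C1q-high cells 7 of the 14 were called higher and among C1q-low cells 1 (Tpi1), where the median was 0.73 and 10 of 14 were higher at an unadjusted p under 0.05.

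Genes of oxidative phosphorylation had few calls, as had all genes tested, of which 1.78% were called higher and 2.37% lower. Outside cytochrome c oxidase, 63 nuclear genes of the electron transport chain and of ATP synthase were tested, and 0 were called by edgeR or by DESeq2. At the shares over all genes this count does not set the list apart. The median log2 fold change was 0.12, and at an unadjusted p under 0.05 edgeR gave 9 higher and 1 lower. Atp5b, of ATP synthase, was at 1052 and 1375 CPM against 882 and 1017 CPM (edgeR adjusted p = 0.0859), and Atp5j at 1052 and 1216 CPM against 877 and 931 CPM. Of 12 cytochrome c oxidase genes, 1 fell, Cox7a2l, at 406 and 389 CPM against 595 and 594 CPM (log2 fold change -0.62 ± 0.13, edgeR adjusted p = 0.00198). Cox7a2l did not pass with DESeq2 (adjusted p = 0.0145), without a term for the mouse (0.0176, edgeR), within C1q-low or C1q-high cells (0.0164 and 0.131) or when either mouse was left out (0.309 and 0.383). Ndufa4, the relative of AA467197, was at 633 and 663 CPM in members and at 659 and 784.5 CPM in comparison cells (log2 fold change -0.19 ± 0.12, edgeR adjusted p = 0.412).

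Of 25 tested interferon-gamma-induced genes outside the label, 4 were higher (Ccl5, Serpina3g, Cd40, Gbp2) and 2 lower (Irf1, Calhm6), beside 1.78% higher and 2.37% lower over all genes, and the median was 0.31. At an unadjusted p under 0.05, 11 were higher and 4 lower. DESeq2 called 2 higher and 0 lower, and Gbp2 and Calhm6 did not pass there (adjusted p = 0.0201 and 0.0239). Gbp2, a guanylate-binding protein, was at 770 and 770.5 CPM against 458.5 and 555 CPM, below the 999 and 1095 CPM of Ly6c2-positive M-high cells. Serpina3g, a serine protease inhibitor, was at 248 and 344 CPM against 106 and 124 CPM (log2 fold change 1.32 ± 0.17, edgeR adjusted p = 4.76e-06), and Calhm6 fell to 174 and 123.5 CPM from 224 and 279 CPM. Of 23 type I interferon-induced genes, 2 rose, Zbp1 (log2 fold change 0.82) and Irf7 (0.73), and neither passed within C1q-low or C1q-high cells, without a term for the mouse (edgeR adjusted p = 0.0128 and 0.132) or when either mouse was left out. At an unadjusted p under 0.05, 7 of the 23 were higher and 1 lower.

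Of 11 tested cytokines, Il1rn, the interleukin-1 receptor antagonist, rose and Il10 fell, and at an unadjusted p under 0.05 there were 4 higher and 3 lower. Il1rn was at 997 and 832 CPM in members against 303 and 315 CPM in comparison cells, and 61 of 76 and 69 of 85 members had a UMI (log2 fold change 1.53 ± 0.15, edgeR adjusted p = 1.34e-07). Il1b, the inflammatory cytokine that Il1rn opposes at its receptor, was high in both classes, at 11410 and 10540 CPM against 8792 and 8064 CPM, and did not pass the threshold (edgeR adjusted p = 0.0151). Tnf was at 137 and 75.2 CPM against 164 and 108 CPM, also without passing (edgeR adjusted p = 0.353). Of 20 NF-kB targets, Sod2, Clec4e and Acod1 rose and Cd83 fell, with 6 higher and 5 lower at an unadjusted p under 0.05. DESeq2 called 3 of them higher and 0 lower, and Cd83 did not pass there (adjusted p = 0.140), nor among C1q-low cells (0.0814, edgeR) or when either mouse was left out. Its log2 fold change was -0.82 without HFD replicate 1 and -1.15 without HFD replicate 3. Clec4e, a receptor for glycolipids, was at 390 and 459 CPM against 226.5 and 147 CPM, and Cd83 was at 783 and 711 CPM against 1725 and 1196 CPM.

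In arginine, nitric oxide and itaconate metabolism, 2 of 7 tested genes rose, Slc7a11 and Acod1, and Sat1, which acetylates polyamines, fell, with a median of 0.63. Sat1 did not pass with DESeq2 (adjusted p = 0.0242), without a term for the mouse (0.0570, edgeR), within C1q-low or C1q-high cells (0.407 and 0.119) or when either mouse was left out (0.279 and 0.617). Acod1, the enzyme that makes itaconate, was low, at 76.5 and 37.6 CPM in members against 13.9 and 22 CPM (log2 fold change 1.61 ± 0.36, edgeR adjusted p = 0.00471). It did not pass without a term for the mouse (adjusted p = 0.0128, edgeR) or within C1q-low (0.265) or C1q-high cells (0.0620).

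Of 8 tested genes of the MHC class II machinery, Ifi30, a lysosomal thiol reductase, rose (2199 and 2357 CPM against 1448 and 1493 CPM) and Lgmn, legumain, fell (1474 and 1436 CPM against 2024 and 2129 CPM). Neither passed within C1q-low or C1q-high cells, and the log2 fold change of Lgmn was 0.32 among C1q-low cells (edgeR adjusted p = 0.431). Of 18 MHC class I genes 1 rose, Psme2, at 1279 and 1157 CPM against 659 and 761 CPM, and at an unadjusted p under 0.05 there were 6 higher and 0 lower. The summed MHC class I list was at 14860 and 13830 CPM in members against 11120 and 12250 CPM. H2-D1 was at 4512 and 4126 CPM against 3691 and 4052 CPM and did not pass (edgeR adjusted p = 0.557). Of 8 costimulatory genes, Cd40 rose (303 and 234 CPM against 103 and 126 CPM, log2 fold change 1.20 ± 0.19, edgeR adjusted p = 7.80e-05) and Cd83 and Cd48 fell. Neither fall passed with DESeq2 (adjusted p = 0.140 and 0.0127), and Cd48 did not pass without a term for the mouse (0.0129, edgeR). Of the rule genes, given as a description, H2-Aa was at 23020 and 21810 CPM in members and at 22830 and 22500 CPM in comparison cells, and Cd74 at 19580 and 18670 CPM against 26110 and 22920 CPM, so Cd74 was lower in members in both mice.

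Some genes of resident macrophages fell. Of 11 tested scavenger and endocytic genes, 5 fell (Pf4, Mrc1, Hpgd, Selenop, Cd81), 0 rose and 6 did not pass, with a median of -1.61 and, among C1q-low cells, of 0.21. Cd81, a tetraspanin, was at 306 and 231 CPM against 1230 and 945 CPM (log2 fold change -2.05 ± 0.15, edgeR adjusted p = 8.33e-10). Of 9 complement genes, C1qa, C1qb, C1qc, C3ar1 and C5ar1 fell and Cfb, complement factor B, rose. DESeq2 called 4 lower and 0 higher, so the Cfb rise did not pass there, nor did the C1qb fall (adjusted p = 0.347). C1qa was at 2837 and 2387 CPM against 5077 and 4475 CPM (log2 fold change -0.91 ± 0.12, edgeR adjusted p = 7.83e-06), and within C1q-low cells its log2 fold change was 0.85 (edgeR adjusted p = 0.0400). C1qa, C1qb and C1qc themselves set which cells are C1q-low, so their values there are conditioned on that choice and test nothing. Neither list had a gene called by edgeR among C1q-low cells, where 8 genes of each were tested and 1 scavenger and 3 complement genes were higher at an unadjusted p under 0.05.

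Lipid handling genes went both ways. Apoe, the apolipoprotein of mature macrophages, was at 6914 and 3439 CPM in members against 24300 and 17850 CPM in comparison cells (log2 fold change -2.09 ± 0.16, edgeR adjusted p = 1.45e-09), with 60810 and 59260 CPM in chow comparison cells. Fabp5, Lgals3 and Nr1h3 rose. Lgals3, galectin-3, was at 3860 and 5219 CPM against 2351 and 3129 CPM, and Nr1h3, the oxysterol receptor LXR-alpha, at 121 and 142 CPM against 47.8 and 51.7 CPM. These 3 of 11 tested genes were also called among C1q-low cells, while Apoe was not (log2 fold change -0.66, edgeR adjusted p = 0.156). Among C1q-high cells Fabp5 and Apoe were called, and Lgals3 and Nr1h3 were not (edgeR adjusted p = 0.0265 and 0.0243).

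Of 9 tested genes of alternative activation, Ccl17, Ccl22 and Socs2 rose, Mrc1 and Chil3 fell and 4 did not pass. In each of the remaining lists 1 or 2 genes were called. Of 12 monocyte genes, Msrb1, a methionine sulfoxide reductase, rose (551 and 650 CPM against 298 and 343.5 CPM) and Chil3, a chitinase-like protein of monocytes, fell (208 and 234 CPM against 318 and 516 CPM). Of 9 matrix genes Mmp13, a collagenase, fell (55.4 and 134 CPM against 253 and 253 CPM) but had a log2 fold change of 0.81 among C1q-low cells (edgeR adjusted p = 0.693), while Sdc4 was at 501 and 472.5 CPM against 468.5 and 370 CPM. Of 21 lysosomal genes 1 fell, Lgmn, and Psap, prosaposin, was at 2861 and 3281 CPM against 3071 and 3377 CPM. Of 7 tested chemokine receptors Ccr7 rose and Cx3cr1 fell.

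**Figure D4:**
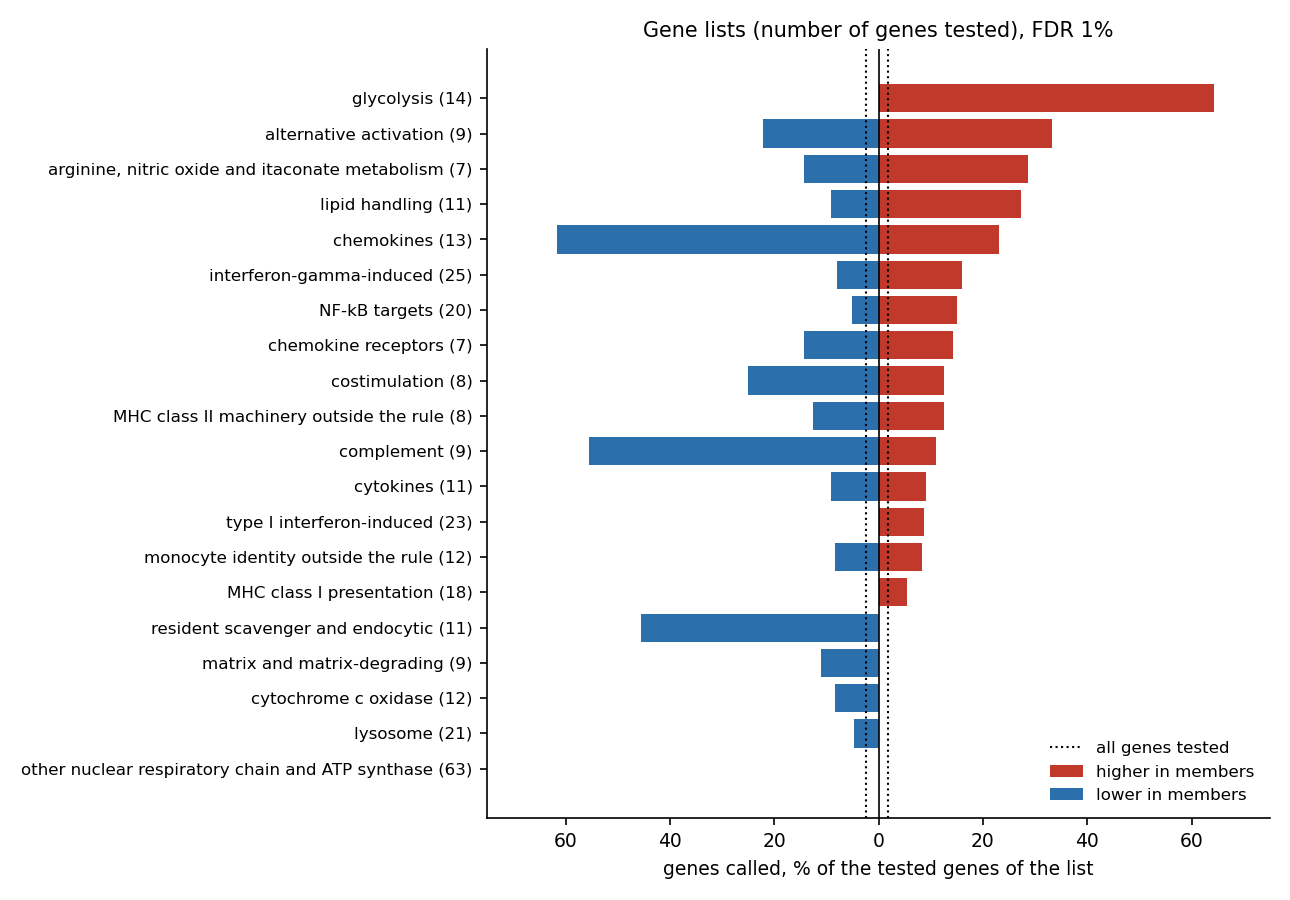
Percentage of the tested genes of each list that were called higher (red, right) or lower (blue, left) in members than in other Ly6c2-negative M-high cells, with the number of genes tested in brackets. Dotted lines give the percentages over all genes, 1.78% higher and 2.37% lower. Glycolysis reaches furthest to the right, and chemokines, complement and resident scavenger genes reach furthest to the left. The lists were chosen with earlier results known and were not tested as sets.

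The second comparison set members against Ly6c2-positive M-high cells of the HFD mice, the class nearest to them that the rule left out. Of 5470 genes tested, 46 were higher and 52 lower in members, which is 0.841% and 0.951%, and without a term for the mouse 41 were called. DESeq2 called 63, and in a fit over all 4 mice 12 were called without HFD replicate 1 and 10 without HFD replicate 3. Both comparisons use the same member sums, so their calls are given side by side and not as an overlap. The 6 largest rises were Ccl17, Gm15056, Tbc1d4, Ccl22, Ccr7 and Ramp3. Ccl17 was at 61.9 and 56.5 CPM in Ly6c2-positive M-high cells (log2 fold change 3.29, edgeR adjusted p = 9.87e-08), and Ccr7 at 99.9 and 133 CPM (1.83, edgeR adjusted p = 4.70e-06). Tbc1d4, a regulator of glucose transporter traffic, was at 63.3 and 64.4 CPM in members against 9.77 and 16.6 CPM (log2 fold change 2.17, edgeR adjusted p = 0.00109), and did not pass against other Ly6c2-negative M-high cells (0.84, edgeR adjusted p = 0.157).

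The 6 largest falls were Ccl7, Chil3, Gm9733, Il18, Fam129a and Cx3cr1. Chil3 was at 1078 and 1635 CPM in Ly6c2-positive M-high cells against 208 and 234 CPM in members (log2 fold change -2.58, edgeR adjusted p = 5.95e-11), and Plac8, another monocyte gene, at 5432 and 5914 CPM against 2463 and 2118 CPM (-1.28, edgeR adjusted p = 7.09e-08). Of 13 tested monocyte genes outside the rule 6 were lower in members and 0 higher. Of 14 glycolysis genes 1 was called (Aldoa, log2 fold change 0.65, edgeR adjusted p = 0.00413) and the median was 0.49. Of 25 tested interferon-gamma-induced genes outside the label, 2 were higher (Serpina3g and Cd40) and 1 lower (Calhm6). Ccl7, at 157 and 228.5 CPM in Ly6c2-positive M-high cells, was lower in members in both comparisons. Plac8 was named after its values were seen.

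AA467197-positive cells with Ly6c2, which the rule leaves out, allow a like contrast in cells that the first comparison does not set against each other. Among Ly6c2-positive M-high cells, 42 and 78 had at least 2 AA467197 UMIs and 152 and 509 had fewer. Cxcl9 was at 2127 and 2009 CPM in the first and at 578 and 664 CPM in the second. Ass1 was at 809.5 and 742 CPM against 256 and 319.5 CPM. The levels in the first were above those in members of the same mouse, except for Ass1 in HFD replicate 3. Of the 95 genes called higher in members, 85 (89.5%) were also higher in the AA467197-positive Ly6c2-positive cells of both mice, against 26.7% of all 5352 genes. Of the 127 genes called lower, 104 (81.9%) were lower in both mice, against 32.6% of all genes. These counts are a description without a test, and both kinds of AA467197-positive cell come from the same mice.

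Of the 12 largest rises, 10 were higher in both mice, the exceptions being Gm15056 and Spp1. Procr was at 274 and 328.5 CPM in AA467197-positive and at 54.1 and 50.7 CPM in AA467197-negative Ly6c2-positive cells, and Ccl5 was at 1793 and 881 CPM against 344.5 and 538 CPM. Of the 12 largest falls, 11 were lower in both mice, the exception being Ccl12, and Pf4 was at 18.3 and 22.4 CPM against 184 and 103 CPM. The share of C1q-high cells was higher in AA467197-positive cells here, while most C1q levels were lower. At least 50 C1q UMIs per 10000 were found in 50% and 43.6% of AA467197-positive and in 40.8% and 33.8% of AA467197-negative cells. C1qb was at 2442 and 2347 CPM in the first and at 2635 and 2423 CPM in the second, C1qc at 1875 and 1770 CPM against 2201 and 2053 CPM, and C1qa at 2090 and 2297 CPM against 2498 and 2186 CPM. AA467197-positive cells were deeper, with medians of 5409.5 and 5080.5 UMIs against 4339 and 3555, and the part of depth in these levels was not tested.

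**Figure D5:**
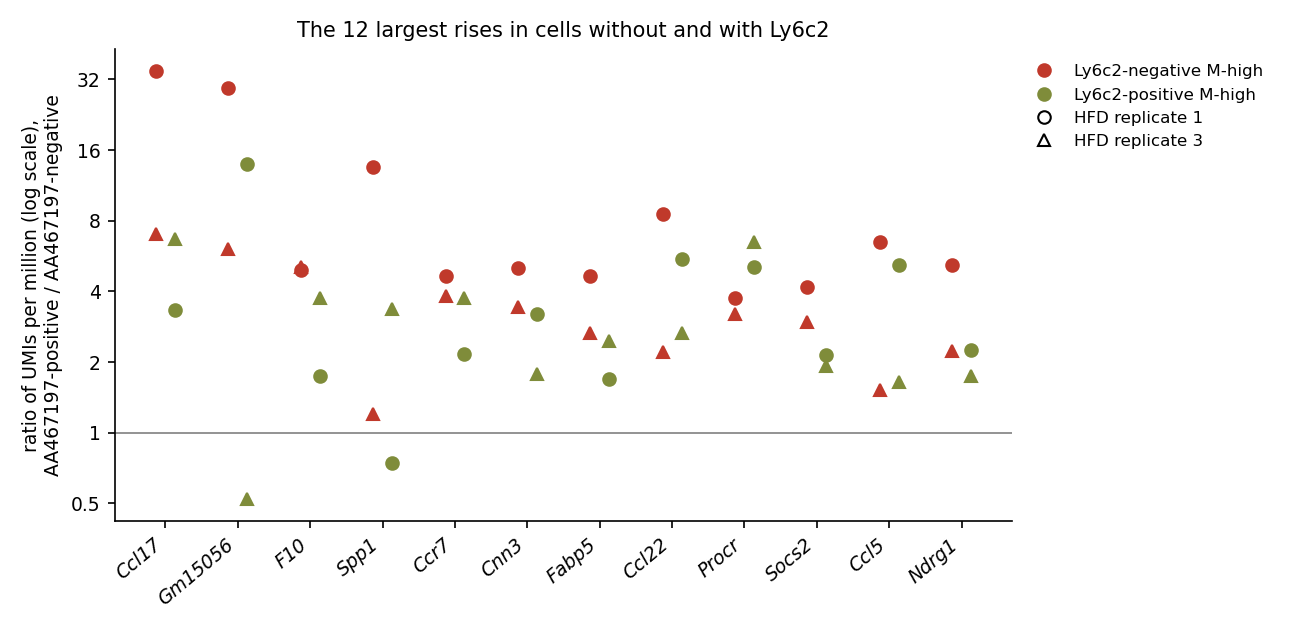
Ratio of CPM (log scale) between AA467197-positive and AA467197-negative cells for the 12 largest rises, in Ly6c2-negative M-high cells (red, members against the rest) and in Ly6c2-positive M-high cells (green), with circles for HFD replicate 1 and triangles for HFD replicate 3. In Ly6c2-positive cells the ratio is above 1 in both mice for 10 of the 12 genes, and below 1 in 1 mouse for Gm15056 and Spp1.

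Members also differed among themselves with their AA467197 level. The HFD members with 2, with 3 to 5 and with at least 6 AA467197 UMIs numbered 23, 16 and 37 in HFD replicate 1 and 18, 38 and 29 in HFD replicate 3. Across these groups Cd63, a tetraspanin of late endosomes, was at 264, 763 and 1270 CPM in HFD replicate 1 and at 194, 666 and 1074 CPM in HFD replicate 3. Ccr7 was at 82.0, 336 and 874 CPM and at 29.8, 235 and 579 CPM. Both genes were thus lowest in members at the threshold and highest in those with most AA467197, in each mouse.

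Cxcl9 followed this order in HFD replicate 1 (920, 1397 and 2753 CPM) but not in HFD replicate 3 (1969, 1016 and 1850 CPM). C1qa had its lowest level in the group with at least 6 UMIs, at 1832 CPM after 3918 and 3802 CPM in HFD replicate 1 and at 1470 CPM after 2894 and 2883 CPM in HFD replicate 3. Apoe was at 12457, 5264 and 4412 CPM and at 4833, 3819 and 2223 CPM, again lowest in the group with most AA467197. Il1b showed no such order, at 9240, 13541 and 11796 CPM and at 10352, 10596 and 10561 CPM. These groups were formed on AA467197 after its distribution had been seen, and their values carry no test.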

How the data were processed

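Colonic macrophages and monocytes of 2 chow and 2 HFD mice were measured by single-cell RNA-sequencing. Per the submitters' processing notes, BUStools 0.39.2 and Kallisto 0.46.0 were used, with build mm10. The authors kept cells annotated as macrophages or monocytes after filters on depth and mitochondrial share, and deposited raw UMI counts without normalization. Pseudo-alignment assigns reads by transcript, so counts of near-identical genes may be shared. Cells were assigned to mice by the suffix of the cell name. Of 11820 genes, 11819 were matched by identifier to GENCODE M21 (GRCm38).

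The members, gene lists and comparisons were chosen with earlier results of these data known. Counts were summed per mouse and class. The 8 sums of the HFD mice were fitted with edgeR (version 4.0.16, TMM, quasi-likelihood test) with terms for class and mouse, since both classes come from the same animals, and p-values were adjusted by Benjamini-Hochberg over all genes tested. A gene was tested when it exceeded 1 CPM in 2 or more sums and was detected in 5% or more of the cells of either compared class. CPM are UMIs per 1000000 UMIs of the summed cells, and 3′ counts carry no length term. In simulated data with 200 changed genes this comparison recovered 39.5% of genes changed by 1 and 82.8% of those changed by 2 on the log2 scale, and 0.731% of calls were false. Before the change, the simulated sums had the same gene means in every class and mouse and the same dispersion for every gene. The real sums differ more, so these rates do not carry over to the real calls.

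Named genes are the label markers and rule genes, the 12 largest rises and 12 largest falls past the threshold that moved the same way in both mice with at least 50 CPM in the higher class, 6 each way for the second comparison, and up to 4 called genes per list by level, or the 2 most abundant where fewer than 2 were called. Cd63, Il1b, Ndufa4, Tnf and the cell type markers were named outside this rule. Alternatives were DESeq2 (version 1.42.0), the likelihood-ratio test, other filters, thresholds and scaling, C1q level, depth, doublets marked by Scrublet (scanpy version 1.11.5) and each mouse left out. Of 443 list genes, 405 were in the table, and the rest were not analysed here.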

Additional observations from a re-analysis of the deposited data

How the results depend on the processing

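The count of 222 genes called between members and other Ly6c2-negative M-high cells stayed within 1.5 times under the alternatives not given here. It was 138 with DESeq2, 118 without a replicate block, 140 with 1 or more AA467197 UMIs, 50 among C1q-low and 126 among C1q-high cells (chosen after seeing the data), and 39 to 43 when an HFD mouse was left out of a fit over all 4 mice, which called 180 with both. The 98 genes called against Ly6c2-positive M-high cells became 166 with the likelihood-ratio test, 63 with DESeq2, 155 without a filter, 41 without a replicate block and 10 to 12 when an HFD mouse was left out. Fewer cells or sums enter several of these fits, and other causes were not tested.

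The share among Ly6c2-negative M-high cells was 15.8 percentage points higher on HFD than on chow. The difference was 25.4 with 1 or more, 11.8 with 3 or more and 6.85 with 6 or more AA467197 UMIs (the last chosen after seeing the data), 13.7 with at least 5 per 10000 UMIs, 10.3 after thinning, and 14.8 to 16.9 when a mouse was left out. Among all cells the difference was 6.23, or 9.45 with 1 or more and 2.85 with 6 or more AA467197 UMIs, and 5.04 to 7.42 when a mouse was left out.

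Of 72 named genes, 63 were past the threshold, and 7 of these changed sign among C1q-low cells, without passing there: Ccl8 (0.36), Cxcl2 (0.10), Lgmn (0.32), C1qa (0.85), C1qb (0.71), C1qc (0.38) and Mmp13 (0.81). C1qa, C1qb and C1qc define C1q-low cells, so their values there test nothing. Most of the 63 lost their call without HFD replicate 1, and most did without HFD replicate 3. Among C1q-low cells 33 lost it beside the 7 that changed sign, and others were too low to be tested there. It was lost by 21 among C1q-high cells, 18 without a replicate block and 12 with DESeq2. Among cells of 3000 to 8000 UMIs, where 149 genes were called, 9 lost it. Under the other alternatives none of the 63 changed sign. No paired analysis by replicate number was possible across diets because chow and HFD mice share no number.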
